A study of Homo sapiens with 6 samples.

Results

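Aminoacyl-tRNA synthetases are the enzymes that join each amino acid to its transfer RNA, and the set described here holds 36 of their genes among the 20683 gene symbols counted. The members were taken by symbol. Of these, 20 encode cytosolic enzymes, with the phenylalanine enzyme represented by its subunits FARSA and FARSB, and 16 encode mitochondrial enzymes, whose symbols end in 2. The cells were HT-1080, a line from a human fibrosarcoma. The inhibitor group had 3 libraries from cells given SLV-8472-01, a compound known here by its code and described in the series as an IRAK4 inhibitor, at a labelled dose of 5 mM for 4 h. The DMSO group had 3 libraries from cells given 0.1% DMSO, the solvent, for 4 h. Whether 5 mM was reached in the medium or describes a stock is not said, so the labelled figure is printed. No genetic change was made, and both groups are of 1 cell line, so other cells were not examined.

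A cell makes proteins with separate sets of charged transfer RNAs in its cytosol and in its mitochondria, and for most amino acids a separate nuclear gene encodes the enzyme of each compartment. GARS and KARS are exceptions, since each also gives rise to the mitochondrial enzyme for its amino acid, and mitochondria make glutaminyl-tRNA by an indirect route. Several cytosolic enzymes are held together in a multisynthetase complex. When charged tRNA runs short, the kinase GCN2 senses uncharged tRNA and translation of the transcription factor ATF4 goes up, and several cytosolic synthetase genes are known targets of ATF4. ATF4 pairs with C/EBP family proteins at a composite element.

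The core of that composite element, TGATGNAA on either strand, was searched in promoter windows from 250 bases before to 50 bases after the annotated start (RefSeq, GRCh38.p14). Windows were held for 30 of the 36 members, and DARS, LARS, VARS, YARS, AARS2 and VARS2 had none. VARS and YARS, whose mRNAs rose with the inhibitor, were therefore not searched. The core was found in 7 of 16 cytosolic genes with a window and in 1 of 14 mitochondrial genes, YARS2, and 3.62% of all 34943 windows of this length had it. Among the cytosolic genes with a window, it was found in 5 of the 8 whose mRNA rose with the inhibitor and in 2 of the 8 that were not called. Some genes had more than 1 window: the core was in 7 of 21 cytosolic windows and 1 of 18 mitochondrial ones. The 8 matches are shown because they set the genes with this element beside each other. Each is a stretch of 30 bases of the gene's own strand, 5′ to 3′, with the match in capitals.
AARS, chr16:70289675-70289704, minus strand: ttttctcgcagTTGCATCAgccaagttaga
CARS, chr11:3057407-3057436, minus strand: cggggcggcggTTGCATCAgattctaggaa
GARS, chr7:30594834-30594863, plus strand: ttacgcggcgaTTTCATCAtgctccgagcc
IARS, chr9:92293692-92293721, minus strand: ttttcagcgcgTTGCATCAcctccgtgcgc
MARS, chr12:57488053-57488082, plus strand: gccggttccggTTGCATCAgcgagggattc
NARS, chr18:57621804-57621833, minus strand: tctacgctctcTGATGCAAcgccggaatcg
TARS, chr5:33440956-33440985, plus strand: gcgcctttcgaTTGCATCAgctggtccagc
YARS2, chr12:32756076-32756105, minus strand: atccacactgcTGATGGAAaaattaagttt

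The letters TTGCATCA, the core read on the other strand with C at the free position, were shared by AARS, CARS, IARS, MARS and TARS, and NARS had the same element turned round. Seen from the annotated start, the match began at base -2 in CARS, -4 in MARS, -13 in IARS and -33 in GARS, at base 3 in TARS and base 15 in NARS. It lay farther upstream in AARS, at -187, and in YARS2, at -197. NARS and TARS hold the element and their mRNA was not called, while EPRS, SARS and WARS rose without a match in the window, so the match and the call did not go together gene by gene. A match is a description of the letters and does not show that a factor binds there. With the 5 letters TGATG alone, which 32.95% of all windows hold, 11 cytosolic and 4 mitochondrial genes had a match. TGACGTCA, the cyclic AMP response element, was in no member's window and in 1.84% of all windows. The E-box CACGTG, bound by MYC and related factors, was in 7.23% of all windows, in 1 cytosolic gene (IARS) and in 3 mitochondrial genes (CARS2, EARS2 and MARS2).

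**Figure D1:**
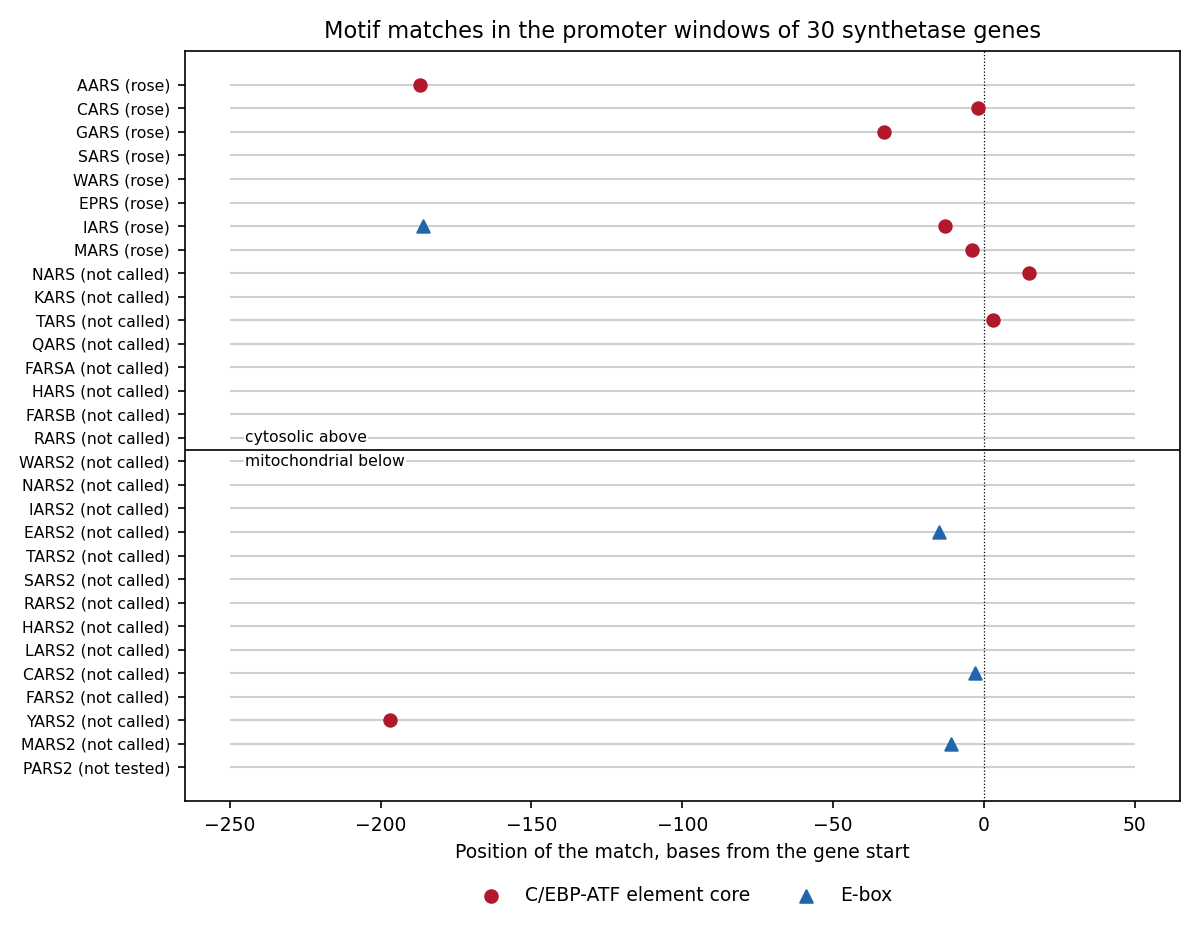
Position of motif matches in the promoter windows of the 30 synthetase genes with a window, in bases from the annotated gene start (x axis), with 1 row per gene in order of log2 fold change within each compartment and the call in brackets. Circles are the C/EBP-ATF element core and triangles the E-box, and 7 of the 8 circles lie in cytosolic genes. For a gene with several windows, the position is from the start of the first window that holds the match.

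The histidine enzymes HARS and HARS2 lie head to head on chromosome 5, and 84 bases separate their annotated starts. That stretch (GRCh38.p14, chr5:140691371-140691454, plus strand, the strand of HARS2) is shown as the clearest case of a cytosolic and a mitochondrial member with a shared upstream region. None of the motifs searched was found in the window of either gene.
HARS and HARS2: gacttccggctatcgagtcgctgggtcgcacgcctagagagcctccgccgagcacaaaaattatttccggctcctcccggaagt

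Library totals ran from 7644478 to 11427779 counts with the inhibitor and from 12003104 to 15336351 for DMSO. The low-count filter passed 11391 genes, and 2298 of them were called, which is 20.2% (edgeR quasi-likelihood test, adjusted p under 0.05). Of all tested genes, 9.92% rose and 10.3% fell, and their median log2 fold change was 0.0034. The libraries separated by group on the first principal component. Levels are given as CPM, normalised counts scaled to a library of 1000000. All 8 mesenchymal markers were tested, with a summed level of 8737 ± 1080 CPM in inhibitor libraries and 7797 ± 529 CPM in DMSO libraries (SD, n = 3 each). FN1 and SPARC rose among them, and the SPARC call was lost when any library except inhibitor replicate 3 was left out (adjusted p from 0.0583 to 0.0934) and with library totals as the scale (0.0622). VIM (6019 against 5648 CPM, inhibitor against DMSO) and SPARC (2236 against 1782 CPM) made up most of the summed mesenchymal level. COL1A2 (2.70 against 2.04 CPM) and S100A4 (2.42 against 2.25 CPM) were near the level of the endothelial marker TEK (2.47 against 1.74 CPM). Of 6 epithelial markers CLDN4 alone passed the filter and was not called, and CDH1 had no count, which allows up to 0.392 CPM in the shallowest library. Of 6 blood markers none passed the filter, and PTPRC and CD3E had no count. Of 5 endothelial markers TEK alone passed and was not called, and the summed level of each of these 3 lists was under 4 CPM in both groups on average (inhibitor against DMSO, epithelial 1.40 against 1.69, blood 0.640 against 0.248 and endothelial 3.68 against 3.02 CPM).

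With the inhibitor, the mRNAs of 10 genes of the cytosolic set rose, and no gene of the mitochondrial set was called. GARS, which also gives rise to a mitochondrial enzyme, was among the 10. Without GARS and KARS, 9 of 18 cytosolic genes rose, with a median log2 fold change of 0.23. Of 20 cytosolic genes, all tested, 10 rose and 0 fell, with a median log2 fold change of 0.23. Of the 16 mitochondrial genes 15 were tested, and 0 rose and 0 fell, with a median of 0.02 (edgeR adjusted p; 0 of 15 had an unadjusted p under 0.05, and DESeq2 and limma voom called 0 as well). The share of cytosolic genes that rose was 50%, against 9.92% of all tested genes. The counts are of bulk RNA, so a larger change in some cells and a smaller one in all cells cannot be told apart. The mitochondrial median was negative without inhibitor replicate 1 (-0.02) or 2 (-0.01), without DMSO replicate 2 (-0.02) and with library totals as the scale (-0.05). The count of 10 was 5 without DMSO replicate 2, and 7 with 1 fall when library totals alone set the scale.

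**Figure D2:**
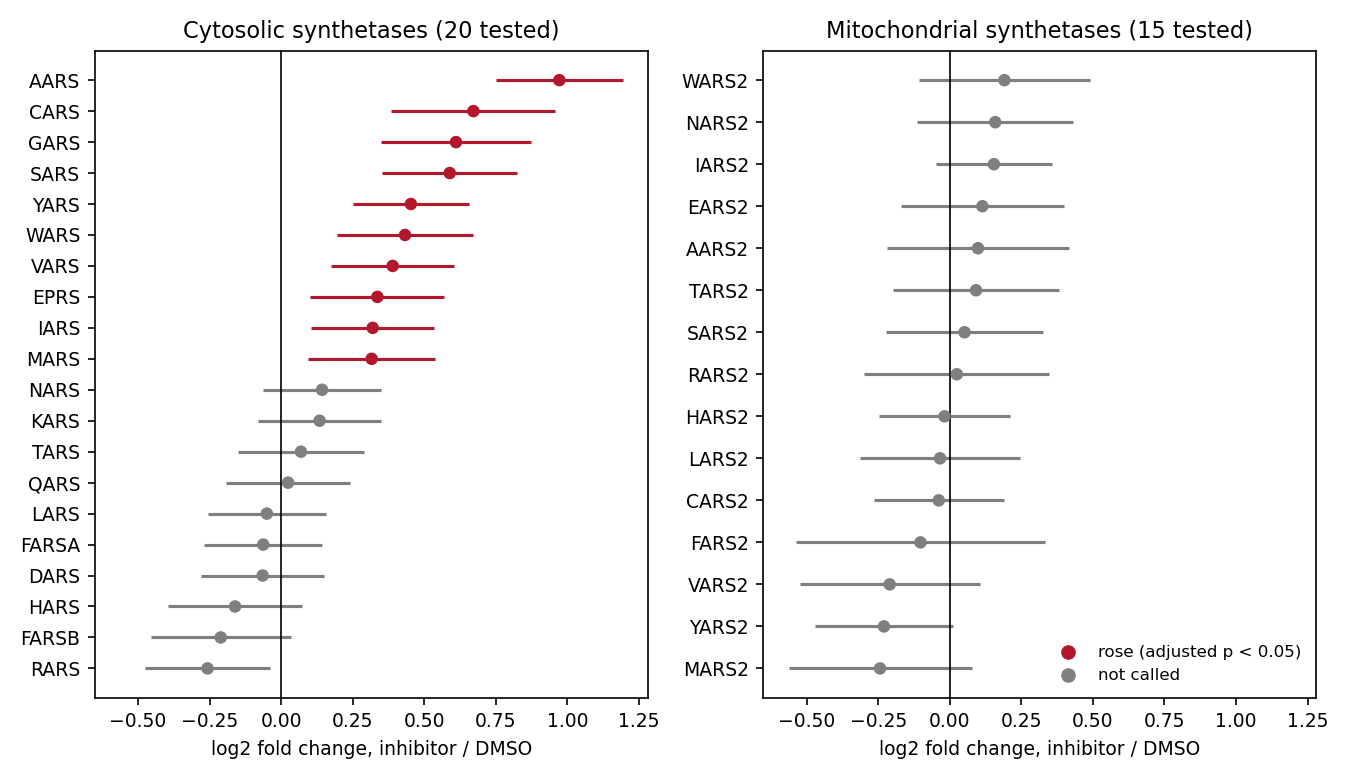
log2 fold change of each tested synthetase gene, inhibitor over DMSO (x axis), for the cytosolic (left) and mitochondrial (right) genes, with 95% intervals as bars (edgeR quasi-likelihood fit, 3 libraries a group). Red marks the 10 genes that rose, from 0.32 for MARS to 0.97 for AARS, and every one of the 15 mitochondrial intervals holds 0.

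AARS, the alanine enzyme, had the largest log2 fold change of the set, with 736, 707 and 852 CPM in the inhibitor libraries, against 430, 358 and 381 CPM in the DMSO libraries. The lowest inhibitor library was well above the highest DMSO library. The log2 fold change was 0.97 ± 0.11 (SE, edgeR adjusted p = 8.95e-07), a fold of 1.96. CARS, the cysteine enzyme, had 19.1, 18.5 and 18.2 CPM with the inhibitor and 12.6, 11.9 and 10.5 CPM with DMSO. Its groups were also apart, with little spread within the inhibitor group, and it rose by 0.67 ± 0.14 (edgeR adjusted p = 0.00146).

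GARS, the glycine enzyme of both compartments, had 387, 361 and 361 CPM with the inhibitor and 305, 228 and 194 CPM with DMSO. The DMSO libraries were spread widely, with replicate 1 the highest, yet stayed under all inhibitor libraries, and the gene rose by 0.61 ± 0.13 (edgeR adjusted p = 0.00148). SARS, the serine enzyme, had 134.5, 137 and 162 CPM with the inhibitor and 106, 99.6 and 82.1 CPM with DMSO. Again no library crossed, and SARS rose by 0.59 ± 0.11 (edgeR adjusted p = 8.72e-04). YARS, the tyrosine enzyme, had 215, 218 and 199.9 CPM with the inhibitor and 152, 158 and 152 CPM with DMSO. The DMSO libraries lay close together, and YARS rose by 0.45 ± 0.10 (edgeR adjusted p = 0.00229). The calls of AARS, CARS, GARS, SARS and YARS held without any single library.

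WARS, the tryptophan enzyme, which interferon also induces in human cells, had 181, 181 and 215 CPM with the inhibitor and 166, 132 and 129 CPM with DMSO. Inhibitor replicate 3 and DMSO replicate 1 were each the highest of their group, and the groups did not overlap. WARS rose by 0.43 ± 0.11 (edgeR adjusted p = 0.00993), a call lost without DMSO replicate 2 (0.0724) or DMSO replicate 3 (0.0616). VARS, the valine enzyme, which binds the elongation factor 1 complex, had 328, 274 and 313 CPM with the inhibitor and 251, 225 and 223 CPM with DMSO. All inhibitor libraries were higher, and VARS rose by 0.39 ± 0.10 (edgeR adjusted p = 0.0101; 0.0604 without DMSO replicate 2).

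EPRS, which carries the glutamate and the proline activity in 1 protein, had 308, 355 and 349 CPM with the inhibitor and 317, 247 and 239 CPM with DMSO. DMSO replicate 1 was above inhibitor replicate 1, so the groups overlapped. EPRS rose by 0.34 ± 0.11 (edgeR adjusted p = 0.0389). It was no longer called without inhibitor replicate 2 (adjusted p = 0.135) or 3 (0.0717), without DMSO replicate 2 (0.183) or DMSO replicate 3 (0.183), and with library totals as the scale (0.0922).

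IARS, the isoleucine enzyme, had 682, 675 and 781 CPM with the inhibitor and 579, 518 and 616 CPM with DMSO. Its groups did not overlap, and it rose by 0.32 ± 0.10 (edgeR adjusted p = 0.0313). It missed the threshold without inhibitor replicate 3 (adjusted p = 0.104), DMSO replicate 1 (0.0727) or DMSO replicate 2 (0.178), and with library totals as the scale (0.0779). MARS, the methionine enzyme, had 787, 819 and 841 CPM with the inhibitor and 695, 552 and 719.5 CPM with DMSO. DMSO replicate 2 was the lowest library, and the groups did not overlap. MARS rose by 0.32 ± 0.11 (edgeR adjusted p = 0.0404). Its call was kept when DMSO replicate 3 was left out. It was lost without inhibitor replicate 1 (0.0536), 2 (0.0965) or 3 (0.0739), without DMSO replicate 1 (0.0559) or 2 (0.266), and with library totals as the scale (0.0881).

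**Figure D3:**
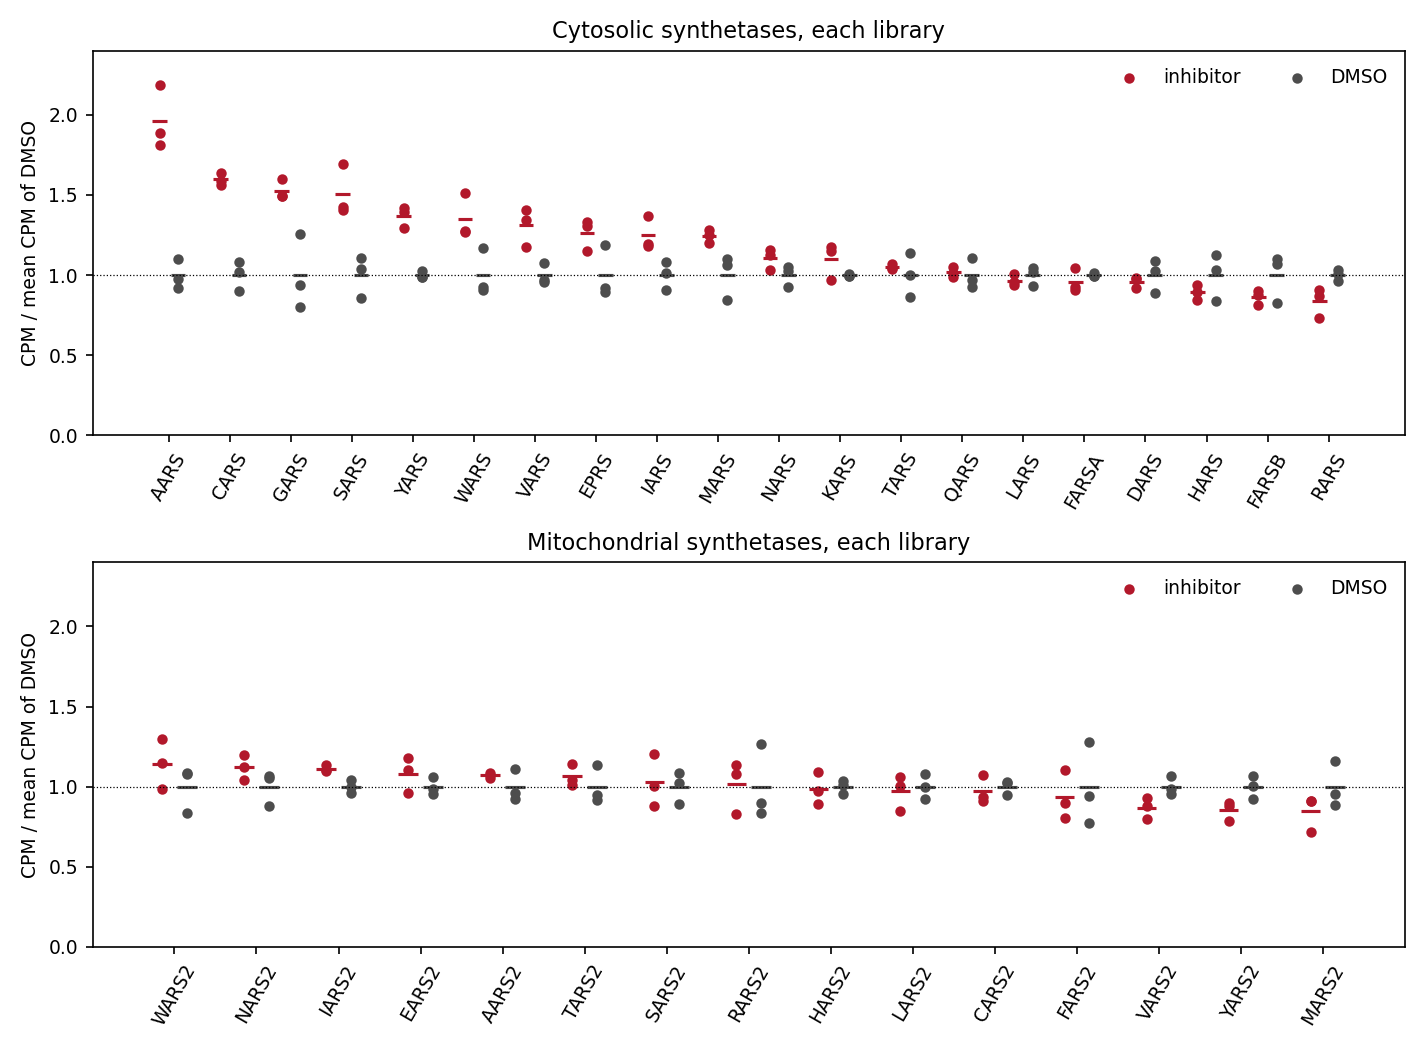
Level of each tested synthetase gene in each library, as CPM divided by the gene's mean CPM in the DMSO group (y axis, from 0), for cytosolic (top) and mitochondrial (bottom) genes in order of log2 fold change. Points are libraries, inhibitor in red and DMSO in grey, and short lines are group means. AARS has the largest inhibitor mean and the mitochondrial genes have points of both groups around 1.

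The other 10 cytosolic genes were not called, with log2 fold changes from -0.26 to 0.14. These were the genes for arginine (RARS), phenylalanine (FARSA and FARSB), histidine (HARS), aspartate (DARS), leucine (LARS), glutamine (QARS), threonine (TARS), lysine (KARS) and asparagine (NARS). The 95% interval of 8 of them ended under 0.32, the smallest rise among the called genes. LARS had 144.5, 142 and 152 CPM with the inhibitor and 158, 141.5 and 155 CPM with DMSO. QARS had 90.6, 93.1 and 96.7 CPM with the inhibitor and 85.2, 89.1 and 102 CPM with DMSO. The libraries of both groups were interleaved in these genes, with log2 fold changes of -0.05 ± 0.10 for LARS (edgeR adjusted p = 0.766) and 0.02 ± 0.10 for QARS (edgeR adjusted p = 0.897). The QARS value changed sign without inhibitor replicate 3, DMSO replicate 1 or DMSO replicate 2 (-0.00, -0.03 and -0.00), and with library totals as the scale (-0.05).

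RARS had the lowest fold change of the set, with 108, 134 and 129 CPM in the inhibitor libraries, against 142, 152 and 149 CPM in the DMSO libraries. All inhibitor libraries were under all DMSO libraries, and the log2 fold change was -0.26 ± 0.11, which was not called (edgeR adjusted p = 0.0905). It was called with library totals as the scale (-0.33, adjusted p = 0.0289). TARS averaged 549.5 ± 9.61 CPM in inhibitor libraries and 524 ± 72.4 CPM in DMSO libraries (SD, n = 3 each), the DMSO libraries lying on both sides of the inhibitor ones. NARS averaged 286 ± 16.2 CPM in inhibitor libraries and 259 ± 16.8 CPM in DMSO libraries (edgeR adjusted p = 0.335). TARS and NARS are the cytosolic genes with the element in their window that were not called.

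In the multisynthetase complex, 3 of 8 enzymes rose (EPRS, IARS and MARS) and 0 fell, with a median log2 fold change of 0.08. Outside it, 7 of 12 rose and 0 fell, with a median of 0.41. The 3 calls inside the complex were the 3 smallest of the 10, and each was lost with library totals as the scale, while the 7 outside were kept. Synthetases also fall into a pair of structural classes by the fold of their catalytic domain. Of 9 cytosolic genes of class I 6 rose (median 0.32), and of 10 of class II 3 rose (median 0.10), with EPRS, which has a domain of each class, counted in neither. Differences between these subgroups were not tested, and 9.92% of all tested genes rose.

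Of 3 genes for the scaffold proteins of the complex, 0 rose and 1 fell, while 9.92% of all tested genes rose and 10.3% fell. AIMP1 averaged 51.0 ± 2.80 CPM in inhibitor libraries and 55.2 ± 6.34 CPM in DMSO libraries, and AIMP2 averaged 75.4 ± 8.36 CPM in inhibitor libraries and 67.2 ± 9.37 CPM in DMSO libraries, neither called (edgeR adjusted p = 0.507 and 0.36). EEF1E1, also known as AIMP3, fell to 104 ± 6.16 CPM with the inhibitor, against 130 ± 13.7 CPM with DMSO (log2 fold change -0.32 ± 0.11, edgeR adjusted p = 0.0367). That call was kept when DMSO replicate 1 was left out. It was lost without inhibitor replicate 1 (0.115), 2 (0.0526) or 3 (0.0554) and without DMSO replicate 2 (0.089) or 3 (0.17), with upper-quartile scaling (0.0521) and in thinned libraries (0.0675).

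All the mitochondrial genes tested lay between log2 fold changes of -0.24 (MARS2) and 0.19 (WARS2). MARS2, the methionine enzyme, had 13.4, 10.5 and 13.4 CPM with the inhibitor and 14.1, 17.1 and 13.1 CPM with DMSO. Inhibitor replicates 1 and 3 lay within the DMSO range, and the log2 fold change was -0.24 ± 0.15 (edgeR adjusted p = 0.282). YARS2, the tyrosine enzyme and the mitochondrial gene with an element in its window, had 27.8, 31.1 and 31.6 CPM with the inhibitor and 35.5, 37.7 and 32.7 CPM with DMSO. All inhibitor libraries were lower, by a log2 fold change of -0.23 ± 0.12 that was not called (edgeR adjusted p = 0.171). VARS2, the valine enzyme, had 9.24, 10.8 and 10.2 CPM with the inhibitor and 11.4, 12.3 and 11.1 CPM with DMSO. It was lower in all inhibitor libraries too, at -0.21 ± 0.15 (edgeR adjusted p = 0.355). The cytosolic counterparts YARS and VARS both rose.

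At the upper end, WARS2, the tryptophan enzyme, had 22.0, 16.8 and 19.4 CPM with the inhibitor and 18.3, 18.4 and 14.2 CPM with DMSO. The groups overlapped, and the log2 fold change was 0.19 ± 0.14 (edgeR adjusted p = 0.377). NARS2, the asparagine enzyme, had 19.4, 20.9 and 22.2 CPM with the inhibitor and 19.8, 19.6 and 16.3 CPM with DMSO. Inhibitor replicate 1 was under DMSO replicates 1 and 2, and the value was 0.16 ± 0.13 (edgeR adjusted p = 0.426). IARS2, the isoleucine enzyme, averaged 217 ± 3.65 CPM in inhibitor libraries and 195 ± 8.18 CPM in DMSO libraries (SD, n = 3 each). Its libraries did not overlap, and it was not called (0.15 ± 0.10, edgeR adjusted p = 0.28).

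RARS2 and HARS2 had the largest p among the mitochondrial genes. RARS2, the arginine enzyme, had 23.2, 24.5 and 17.8 CPM with the inhibitor and 27.2, 18.0 and 19.4 CPM with DMSO (log2 fold change 0.02 ± 0.16, edgeR adjusted p = 0.926). Its sign was negative in 4 of the 6 fits that left out a library (inhibitor replicates 1 and 2, DMSO replicates 2 and 3). HARS2 had 49.1, 55.1 and 45.2 CPM with the inhibitor and 48.4, 50.9 and 52.3 CPM with DMSO (-0.02 ± 0.11, edgeR adjusted p = 0.924). The libraries of both groups were mixed in both genes. HARS, its head-to-head neighbour, averaged 97.6 ± 5.07 CPM in inhibitor libraries and 109 ± 15.9 CPM in DMSO libraries and was not called either (edgeR adjusted p = 0.339).

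The genes for alanine (AARS2), cysteine (CARS2), glutamate (EARS2), phenylalanine (FARS2), leucine (LARS2), serine (SARS2) and threonine (TARS2) had log2 fold changes from -0.10 to 0.11. FARS2 had the fewest counts among them, 36 to 61 per inhibitor library and 56 to 119 per DMSO library, and the largest SE of the tested members, 0.21. PARS2, the proline enzyme, did not pass the low-count filter, with 10, 2 and 3 counts in inhibitor libraries and 5, 4 and 4 in DMSO libraries, which is under 1 CPM in every library.

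The mitochondrial genes had the wider range of errors. SEs ran from 0.10 to 0.21 in the mitochondrial genes and from 0.10 to 0.14 in the cytosolic ones. The highest upper end of a mitochondrial 95% interval was a log2 fold change of 0.49 (WARS2), a fold of 1.40, so a rise as large as that of AARS lies outside every mitochondrial interval. A rise as small as that of MARS, 0.32, lies outside 6 of the 15 (CARS2, HARS2, LARS2, MARS2, VARS2 and YARS2) and within the other 9. Groups did not overlap in 9 cytosolic genes with the inhibitor higher and 1 (RARS) with it lower, and in 1 mitochondrial gene with it higher (IARS2) and 2 with it lower (VARS2 and YARS2). Among all tested genes 17.7% did not overlap with the inhibitor higher and 18.7% with it lower.

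To compare the compartments directly, the ratio of the cytosolic to the mitochondrial enzyme of the same amino acid was taken in each library. This ratio hardly depends on how libraries are scaled, and since each count comes from 1 amplified part of a transcript, its change is read here and not its level. Of 16 pairs, 6 had a ratio that was higher in every inhibitor library than in every DMSO library, and 0 had one lower in every inhibitor library. Among single tested genes 17.7% did not overlap with the inhibitor higher and 18.7% with it lower. No such share was computed for ratios of other gene pairs. The 6 pairs higher in every inhibitor library were those for alanine, cysteine, tyrosine, valine, methionine and serine. Their cytosolic genes all rose. Each of the 6 pairs had an exact permutation p = 0.1 (two-sided), the smallest that 3 against 3 libraries allows. Adjusted over the 16 pairs, this permutation p was 0.267, so no pair could pass the threshold in this design. Pairs with a lower ratio in every inhibitor library numbered 1 without inhibitor replicate 3 (LARS to LARS2) and 2 without DMSO replicate 1 (HARS to HARS2 and RARS to RARS2). Separation is easier with fewer libraries, so leaving out a library can add separated pairs but not remove any.

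The log2 ratio of AARS to AARS2 was 6.06, 6.04 and 6.29 in the inhibitor libraries, against 5.46, 4.99 and 5.34 in the DMSO libraries. The difference of the means was 0.87, with DMSO replicate 2 the farthest from the rest. For CARS to CARS2 the log2 ratio was -1.58, -1.42 and -1.41 with the inhibitor and -2.11, -2.19 and -2.26 with DMSO, a difference of 0.71 and several times the spread within either group. For YARS to YARS2 it was 2.94, 2.80 and 2.65 with the inhibitor and 2.10, 2.07 and 2.21 with DMSO, a difference of 0.68. YARS was called and YARS2 was not.

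For VARS to VARS2 the difference was 0.59, for MARS to MARS2 0.56 and for SARS to SARS2 0.56. In MARS to MARS2 the lowest inhibitor library was 5.85 and the highest DMSO library 5.77, and in SARS to SARS2 these were 2.17 and 2.16, so both pairs were separated by little. The ratios for tryptophan (0.25), glutamate (0.24, EPRS to EARS2) and isoleucine (0.17) had positive differences with overlapping groups, although WARS, EPRS and IARS were each called. The other 7 pairs, which include FARSA and FARSB each against FARS2, had differences from -0.29 (RARS to RARS2) to 0.01 (FARSA to FARS2), with overlapping groups in each.

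**Figure D4:**
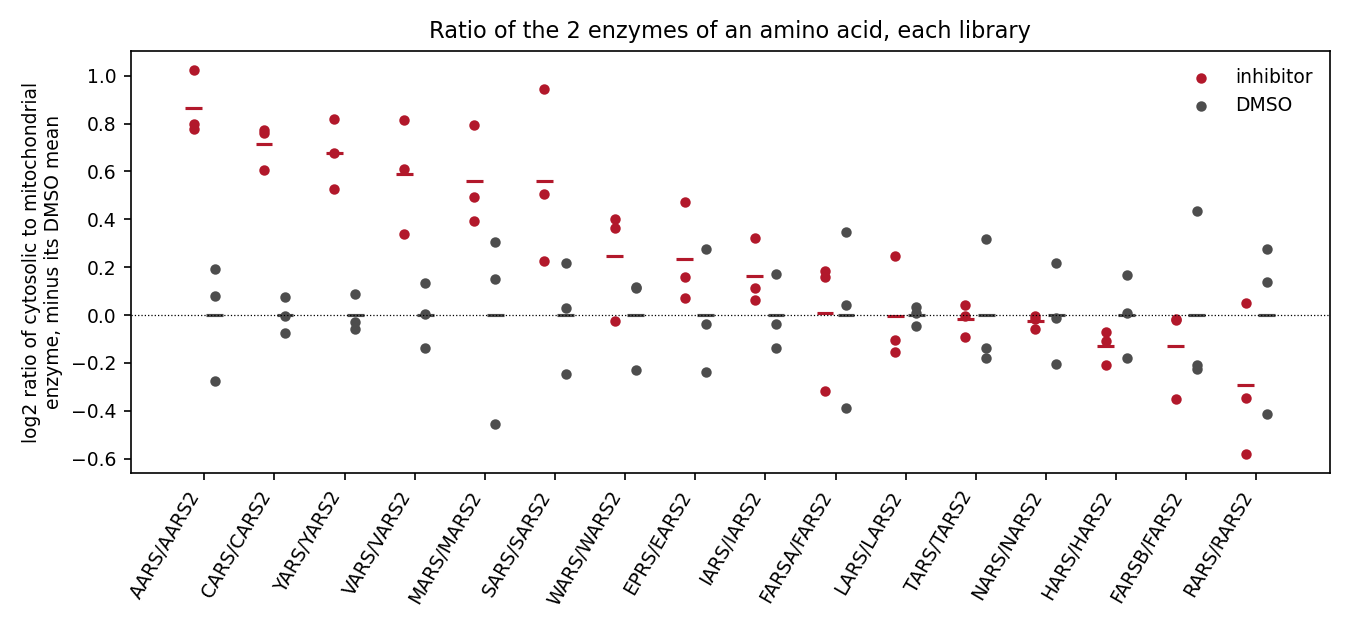
log2 ratio of the cytosolic to the mitochondrial enzyme of each amino acid in each library, minus the pair's mean in the DMSO group (y axis), with pairs in order of the difference between groups (x axis). Points are libraries, inhibitor in red and DMSO in grey, and short lines are group means. The 6 pairs from AARS/AARS2 to SARS/SARS2 have all inhibitor points above all DMSO points.

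As a share of all counts, the 20 cytosolic genes took 0.554%, 0.553% and 0.589% in the inhibitor libraries and 0.494%, 0.468% and 0.477% in the DMSO libraries. The shares of the groups were apart. The summed level was 5800 ± 206 CPM with the inhibitor and 4685 ± 183 CPM with DMSO (SD, n = 3 each), and AARS alone made up 33.7% of that difference. The 16 mitochondrial genes took 0.0525%, 0.0518% and 0.0497% in the inhibitor libraries and 0.0537%, 0.0537% and 0.0486% in the DMSO libraries, which overlap. The median deviation of the tested genes from their DMSO mean, on the log2 scale, was 0.16, 0.24 and 0.29 in the inhibitor libraries and 0.04, -0.01 and 0.01 in the DMSO libraries for the cytosolic genes. For the mitochondrial genes it was 0.10, 0.01 and -0.13 with the inhibitor and 0.01, 0.08 and -0.11 with DMSO, with replicate 3 the lowest of each group.

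The partners that handle tRNA before and after charging moved unevenly. XPOT, the export receptor that carries tRNA out of the nucleus, rose to 479.5 ± 15.1 CPM with the inhibitor, against 348 ± 19.7 CPM with DMSO (log2 fold change 0.46 ± 0.10, edgeR adjusted p = 0.0018). TRNT1, the enzyme that adds the CCA end to which amino acids are joined, fell to 9.81 ± 1.80 CPM, against 15.96 ± 2.20 CPM with DMSO (-0.71 ± 0.16, edgeR adjusted p = 0.00383). Neither group pair overlapped, and both calls held without any single library. Against a fold of 1.2 XPOT was not called (edgeR adjusted p = 0.076). The other 2 genes of that list, SSB and RAN, were not called. SSB was lower in every inhibitor library (log2 fold change -0.24 ± 0.11, edgeR adjusted p = 0.122). Over all tested genes 9.92% rose and 10.3% fell, and 36.3% did not overlap in either direction.

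The cytosolic elongation factors bring charged tRNA to the ribosome and move it on. Among all tested genes 9.92% rose, and of these 6 factors 1 rose and 0 fell, with a median of 0.06. That gene was EEF2, which averaged 8347 ± 515 CPM in inhibitor libraries and 6360 ± 384 CPM in DMSO libraries (log2 fold change 0.39 ± 0.10, edgeR adjusted p = 0.00785; 0.0576 without DMSO replicate 1). Of 4 mitochondrial elongation factors none was called (median 0.07). TSFM averaged 20.8 ± 3.37 CPM in inhibitor libraries and 26.6 ± 1.75 CPM in DMSO libraries (log2 fold change -0.36 ± 0.13, edgeR adjusted p = 0.0613), and it was called without inhibitor replicate 2 (adjusted p = 0.0235), with library totals as the scale (0.0232) and without the filter (0.0413). GFM1 averaged 106 ± 14.4 CPM in inhibitor libraries and 85.8 ± 12.7 CPM in DMSO libraries (0.31 ± 0.12, edgeR adjusted p = 0.0747), and was called without inhibitor replicate 3 (0.0177) or DMSO replicate 1 (0.0322).

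Of 4 genes for the mitochondrial transamidation route to glutaminyl-tRNA and for formylation of the initiator tRNA, none was called (median 0.08), and the lowest p were those of GATB (-0.15 ± 0.11, edgeR adjusted p = 0.367) and QRSL1 (0.19 ± 0.14, edgeR adjusted p = 0.388), a subunit gene each of the amidotransferase. DTD1 and DTD2, which remove wrongly joined amino acids, were not called (0.14 and -0.14, edgeR adjusted p = 0.409 and 0.566). Of 10 markers of mitochondrial content 1 rose and 1 fell, with a median of -0.05. These counts were near the shares over all tested genes, of which 9.92% rose and 10.3% fell. The summed level of the markers was 2909 ± 65.8 CPM in inhibitor libraries and 2923 ± 99.0 CPM in DMSO libraries. TFAM, which packages mitochondrial DNA, fell to 63.9 ± 5.89 CPM, against 87.5 ± 1.85 CPM with DMSO (log2 fold change -0.45 ± 0.11, edgeR adjusted p = 0.00449). LONP1, a matrix protease, rose to 248 ± 13.9 CPM with the inhibitor, against 199 ± 27.8 CPM with DMSO (0.32 ± 0.11, edgeR adjusted p = 0.0422). The LONP1 call was lost without inhibitor replicate 1 (0.131) or 2 (0.0671) and without DMSO replicate 2 (0.215) or 3 (0.161), with library totals as the scale (0.107) and in thinned libraries (0.0556).

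Of 8 tested genes in a list made for the response to uncharged tRNA, 5 rose and 1 fell, with a median log2 fold change of 1.05. Among all tested genes 9.92% rose and 10.3% fell. ATF4 mRNA rose to 828 ± 110 CPM with the inhibitor, against 275 ± 35.8 CPM with DMSO (1.59 ± 0.12, edgeR adjusted p = 2.04e-09), more than the change of any synthetase gene. Its targets CHAC1, SESN2 and TRIB3 rose by 4.04 ± 0.20, 2.45 ± 0.11 and 2.25 ± 0.11. ASNS, the asparagine synthetase that makes the amino acid itself, rose to 106 ± 10.97 CPM, against 74.7 ± 2.46 CPM with DMSO (0.50 ± 0.11, edgeR adjusted p = 0.00181). EIF2S1, the subunit of initiation factor 2 that GCN2 phosphorylates, fell (-0.35 ± 0.11, edgeR adjusted p = 0.0358), a call lost without inhibitor replicate 1 (0.17) or 2 (0.0949) and without DMSO replicate 2 (0.0946) or 3 (0.11), and with upper-quartile scaling (0.0513). ASNS and EIF2S1 are named after their values were seen. EIF2AK4, which encodes GCN2, and GCN1, which activates it, were not called (-0.23 ± 0.11 and 0.06 ± 0.15, edgeR adjusted p = 0.144 and 0.812). DDIT3 had 4, 6 and 5 counts in inhibitor libraries and 0, 1 and 5 in DMSO libraries and did not pass the filter. These transcripts do not measure tRNA charging, GCN2 activity or the amount of ATF4 protein. The name of the list is not a result, and the cause of these changes was not tested.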

How the data were processed

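RNA from 3 inhibitor and 3 DMSO samples was made into Ion AmpliSeq Transcriptome libraries, in which a part of each targeted transcript is amplified, per the labels' protocols. The deposited values are counts per gene symbol, not normalised, 1 table per library. The submitters' processing notes name HTSeq, DESeq2 1.20.0 and the build hg19, without their roles. Aligner, annotation and strand setting were not given in the sources used here. A count cannot separate a change of an mRNA from that of an isoform holding the amplified part. PCR reads carry no molecular identifiers, so counting errors are lower limits.

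Counts were fitted in R 4.3.3 with edgeR 4.0.16 (filterByExpr, TMM, glmQLFit, glmQLFTest, no covariates), with Benjamini-Hochberg adjusted p over 11391 genes and calls under 0.05. Rose and fell refer to such calls. CPM were scaled to 1000000 counts with TMM factors, as mean ± SD of 3 libraries. SE is the log2 fold change over the square root of F. Intervals are 95%. Pair ratios are differences of log2 CPM (prior count 2). Members and lists were chosen with earlier results of these data known, and lists were described by counts and medians without a test. All members are named. Values in every library are given for the 8 cytosolic and 5 mitochondrial genes with the largest absolute log2 fold change and the 2 of each compartment with the largest p, and also for IARS, MARS and RARS, added after their values were seen. From each list up to 4 called genes, or the 2 with the smallest p, are named by rule, and others (AIMP1, AIMP2, SSB, RAN, EIF2AK4, GCN1, DDIT3, ASNS and EIF2S1) were added after their values were seen. Within a group, libraries differed beyond sampling noise (chi-square over its degrees of freedom 9.32 to 14.7), and p-values measure the spread between libraries described as biological replicates. The fit was checked on simulated data. Promoter windows are RefSeq's, on GRCh38.p14, not the build of the counts, matched by current or older symbol. Alternatives were other scalings, filters and tests (DESeq2 1.42.0, limma 3.58.1 voom, a fold of 1.2), thinned libraries, a replicate block and each library left out.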

Additional observations from a re-analysis of the deposited data

How the results depend on the processing

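The count of cytosolic genes that rose was 10 with DESeq2 size factors, upper-quartile scaling, no filter, a 10 CPM minimum, thinned libraries, DESeq2 and limma voom. It was 4 against a fold of 1.2 (AARS, CARS, GARS and SARS), where 829 of all genes were called against 2298, and from 5 to 9 with a library left out, where 1405 to 2246 genes were called. With library totals alone 1 cytosolic gene fell (RARS) and the cytosolic median was 0.16. With a library left out, that median ran from 0.18 to 0.28. Mitochondrial calls stayed at 0 in all of these, and the mitochondrial median ran from -0.0467 (library totals) to 0.0535, with a negative sign also without inhibitor replicate 1 (-0.0223) or 2 (-0.0092) or DMSO replicate 2 (-0.0179). The median of all tested genes was 0.0272 with upper-quartile scaling, -0.0677 with library totals, -0.003 without a filter, -0.0029 with a minimum of 10 CPM, -9e-04 in thinned libraries and -0.0018 to 0.0049 with a library left out. The pairs separated with a higher ratio in inhibitor libraries numbered 5 in thinned libraries and 6 to 8 with a library left out. Leaving out a library can only keep or add separated pairs, so those counts could not be under 6. Pairs separated with a lower ratio numbered 1 without inhibitor replicate 3 (LARS to LARS2) and 2 without DMSO replicate 1 (HARS to HARS2 and RARS to RARS2). With TGATG as the motif the cytosolic matches were 11. The causes were not tested. Among genes that were not called, signs changed with library totals for QARS (-0.0458), TARS (-4e-04), RARS2 (-0.0467) and SARS2 (-0.0192), and with upper-quartile scaling for HARS2 (0.0055). With a library left out, values ran from -0.0318 to 0.0973 for QARS, -0.0307 to 0.169 for TARS, -0.12 to 0.0034 for CARS2, -0.25 to 0.11 for FARS2, -0.098 to 0.043 for HARS2, -0.105 to 0.0481 for LARS2, -0.10 to 0.23 for RARS2 and -0.0819 to 0.146 for SARS2.

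The shared replicate numbers are not stated to mark a batch, and deviations of same-numbered libraries were not correlated (0.03, -0.02 and 0.01, with no inhibitor library closest to its own number). With the replicate block the cytosolic genes that rose numbered 10 and the mitochondrial ones 0, and of 8 pairs whose ratio differed in 1 direction in all numbers 7 were higher in inhibitor libraries and 1 lower (RARS to RARS2). This criterion is looser than no overlap. The 6 pairs without overlap meet it in any case, so it does not check them. GFM1 was called with the block (adjusted p = 0.0441). FARS2 had 36 to 119 counts per library and the largest SE of the tested members, and the part of depth in it was not tested.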
